A study of Mus musculus with 4 samples.

Results

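The 10 genes followed here encode proteins that handle messenger RNA in germ cells, and were compared between the testes of *Ccnyl1*-/- and WT mice: *Dazl*, *Dazap1*, *Ybx2*, *Papolb*, *Paip2*, *Pabpc2*, *Ddx25*, *Elavl1*, *Tarbp2* and *Cpeb1*. They were chosen by name, and a probe set was taken when the platform annotation gave it exactly 1 gene symbol that was on this list. This left 18 of the 45037 probe sets that are not array controls, for 10 of 10 genes: 6 genes had 1 probe set, *Dazl*, *Papolb* and *Tarbp2* had 2, and *Elavl1* had 6. The *Ccnyl1*-/- mice carried the *Ccnyl1* KO-first allele, in which a LacZ cassette with a stop signal interrupts the gene in every cell, and were bred from heterozygous pairs. The WT mice carried no such allele. Both genotypes were C57BL/6 males of 2 months with no treatment, and total testis RNA of 2 *Ccnyl1*-/- and 2 WT mice was put on 1 Affymetrix array per mouse.

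Male germ cells fall silent in transcription when the nucleus of the spermatid condenses, so the late proteins are made from messages that were written earlier and kept in store. Storage and release are the work of RNA-binding proteins. Y-box proteins coat and hold the messages, proteins on the 3' untranslated region keep or free them, cytoplasmic poly(A) polymerases lengthen the tail, and poly(A)-binding proteins link the tail to the cap so that ribosomes start. The arrays measure how much of each message is present and not how much of it is translated.

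The value of a probe set is its MAS 5.0 signal, an intensity on a linear scale in which the authors' software scaled each array as a whole. Differences are given as log2 fold changes of *Ccnyl1*-/- over WT on log2(signal + 16), which understates changes of dim probe sets, with 95% intervals from limma fitted over all 32438 probe sets with a mean signal of at least 32. A difference was called at an adjusted p under 0.05 (Benjamini-Hochberg over all these probe sets), and an adjusted p below comes from this fit. All 18 probe sets reached the minimum signal. *Ccnyl1* itself had 921 and 969 in *Ccnyl1*-/- testes, against 2256 and 2425 in WT testes, so the labels hold for each array. Correlations between arrays ran from 0.977 to 0.980 over the 6 pairs. The germ cell lists were well represented. The minimum was reached by 7 of 8 spermatogonial, 8 of 8 spermatocyte, 8 of 8 round spermatid and 8 of 8 elongating spermatid markers. Their list medians were 0.02, 0.08, 0.00 and -0.01 on the log2 scale, in this order. Single markers lay on both sides of 0 in each list, from -0.64 (*Dmc1*) to 0.23 (*Spo11*) among those of spermatocytes. The elongating spermatid markers are all in the list of messages stored by spermatids as well. The spermatogonial marker left out, *Nanos3*, had no probe set assigned to it alone. Among somatic markers the medians ran from -0.16 for macrophages to 0.28 for Leydig cells. Of 8 epididymal markers 6 had a probe set assigned to them alone, and only 2 reached the minimum (*Lcn8* at 1.06 and *Rnase10* at -0.15). In whole testis, fewer cells of a type and less RNA per cell cannot be told apart. With 2 mice per genotype an exact permutation test of a single value cannot go below p = 0.333, so none was run.

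The promoters are shown because 1 member, *Ybx2*, encodes a Y-box protein, a class named for its binding to the Y box, whose core letters are ATTGG. Read on the other strand these are the letters of the CCAAT box. The RefSeq windows of GRCm38.p6, from 250 bases before to 50 after a start, were matched by symbol for 8 of the 10 genes. The core stood on either strand in 6 of the 8 (75.0%), against 11096 of all 27025 genes with a window (41.1%), and in 2 of 9 messages stored by spermatids that had a window (22.2%). These are matches of letters and not measured binding. The match nearest the start is printed in the direction of the gene, with the core or its complement in capitals. *Dazl* lies at chr17:50293651-50293679 (minus strand), *Ybx2* at chr11:69935800-69935828 (plus), *Ddx25* at chr9:35558463-35558491 (minus), *Papolb* at chr5:142530133-142530161 (minus), *Elavl1* at chr8:4325118-4325146 (minus) and *Tarbp2* at chr15:102518037-102518065 (plus).
Dazl: gcgctgccgcctATTGGctgtagcacgtc
Ybx2: cagccgactgcgATTGGcctcggctcagg
Ddx25: cggagcctgaccATTGGccactgagccga
Papolb: cgagaatttcctCCAATctcgtgagagcg
Elavl1: caaagacactgaCCAATagcagagcgcgc
Tarbp2: ctctcagtatagCCAATaaagcagcgaag
The core runs with the gene in *Dazl*, *Ybx2* and *Ddx25* and against it in *Papolb*, *Elavl1* and *Tarbp2*. The 9 windows of the 8 genes (*Ybx2* has 2) held from 59.0% to 78.0% G and C, all above the median of 52.7% over all windows.

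None of the 18 probe sets passed the test of limma, where 4 of the 32438 tested did (0.0123%, all lower in *Ccnyl1*-/- testes). At an unadjusted p under 0.05 there were 2 of 18, *Tarbp2* on its dimmer probe set and 1 dim probe set of *Elavl1*, beside 6.05% of all tested. With the t-test that the methods name, 0 of the 18 passed, and over all tested 0 passed as well. At 7 of the 18 the mice of one genotype all lay above those of the other, 4 higher and 3 lower in *Ccnyl1*-/- testes, beside 35.9% of all tested (20.6% higher and 15.3% lower). Of the log2 fold changes 9 were positive and 9 negative, beside 54.8% positive over all tested. With 1 probe set per gene, the brightest, the values ran from -0.13 (*Paip2*) to 0.15 (*Dazl*), with a median of 0.00, and over all 15268 genes tested the median was 0.00 as well. The 10 probe sets with a mean signal of at least 1000 had 95% intervals within 1.5-fold either way, as did 97.5% of the 6575 tested probe sets this bright. Over all 18, the intervals lay within 2-fold for 16, beside 75.8% of all tested, and the exceptions were again *Tarbp2* 1438952_x_at and *Elavl1* 1440464_at.

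**Figure D1:**
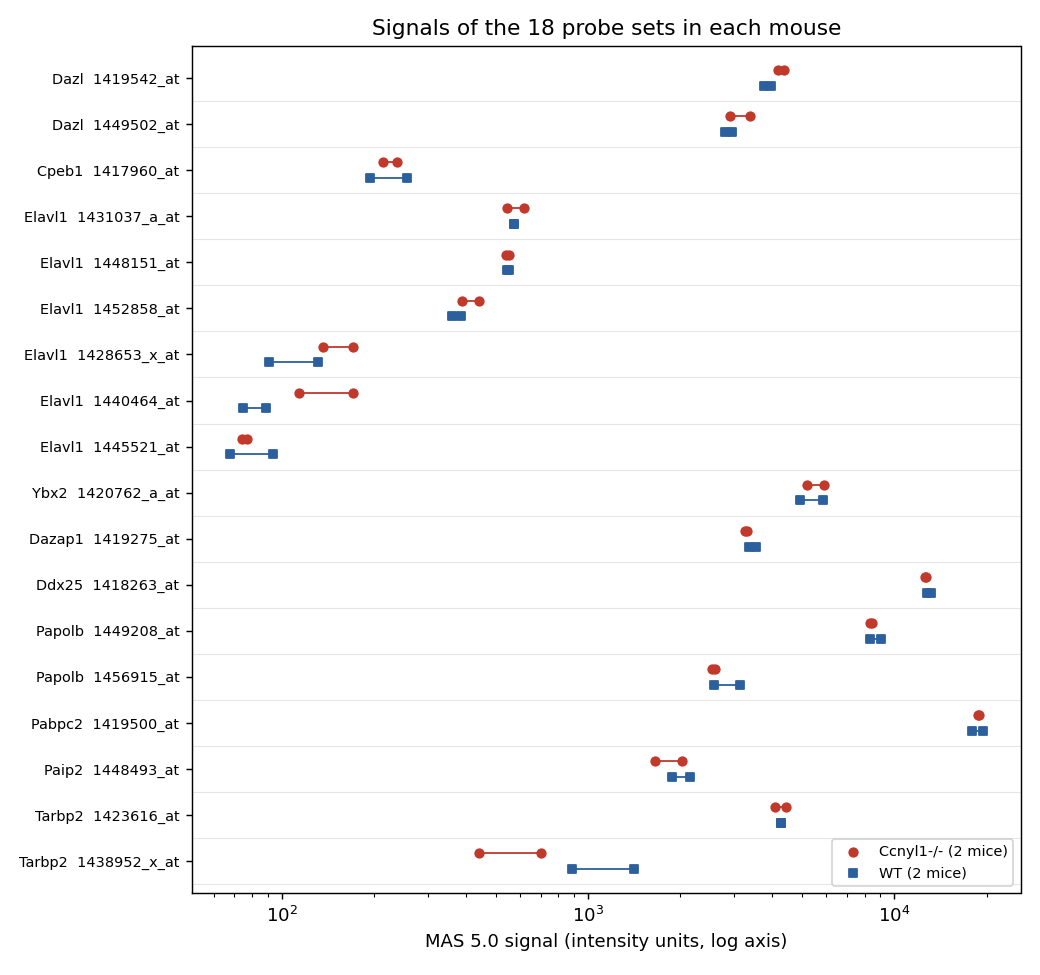
MAS 5.0 signal (intensity units, log axis) of each of the 18 probe sets, with *Ccnyl1*-/- mice as circles above the WT mice as squares and a line joining the 2 mice of a genotype. The genotypes lie apart at 7 probe sets, with the largest difference of log2 means at *Tarbp2* 1438952_x_at (441 and 703 in *Ccnyl1*-/-, 1413 and 884 in WT testes). Probe sets differ in how strongly they bind, so their levels are not compared with each other.

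Among the proteins that bind the 3' untranslated region, *Dazl* had the largest difference of any brightest probe set. *Dazl* encodes an autosomal member of the DAZ family, which binds U-rich sites and promotes translation in mouse germ cells from their formation to meiosis. Its probe set 1419542_at gave 4165 and 4363 in *Ccnyl1*-/- testes, against 3945 and 3743 in WT testes. Both *Ccnyl1*-/- mice were above both WT mice, and the log2 fold change was 0.15 (standard error 0.07, 95% interval -0.00 to 0.30, adjusted p = 0.820). The second probe set, 1449502_at, which the annotation assigns to the same transcript, gave 3390 and 2914 in *Ccnyl1*-/- testes and 2959 and 2796 in WT testes, with a log2 fold change of 0.13 (adjusted p = 0.864). Here the groups overlapped, since 1 *Ccnyl1*-/- mouse was below a WT mouse. The 2 probe sets kept a positive sign without any 1 mouse (0.11 to 0.19 and 0.02 to 0.24), but the values were never past the test. With arrays scaled to one median they were 0.07 and 0.05.

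*Cpeb1* encodes the protein that binds the cytoplasmic polyadenylation element and both represses messages and recruits the enzymes that lengthen their tails. Its only probe set gave 214 and 238 in *Ccnyl1*-/- testes, against 194 and 257 in WT testes. The *Ccnyl1*-/- values lay between the WT values. The difference was 0.01 on the log2 scale, and its interval (-0.41 to 0.44) was the widest of the genes with a single probe set.

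*Elavl1* encodes HuR, which binds AU-rich elements, stabilises messages and is needed by mouse germ cells in meiosis. Its brightest probe set, 1431037_a_at, gave 618 and 545 in *Ccnyl1*-/- testes, against 574 and 573 in WT testes, a log2 fold change of 0.02. Probe set 1448151_at gave 540 and 551 in *Ccnyl1*-/- and 546 and 552 in WT testes, a log2 fold change of -0.01 (95% interval -0.28 to 0.26). On both, the mice of the genotypes overlapped. At 1448151_at the mice of a genotype were closer to each other than at nearly all probe sets of like signal. Its spread within genotypes was larger than that of only 1.80% of the 1000 tested probe sets nearest in signal. The other 4 probe sets were dimmer and did not move alike. Probe set 1440464_at gave 114 and 171 in *Ccnyl1*-/- testes, against 74.5 and 88.6 in WT testes. The groups lay apart, with a log2 fold change of 0.68 (95% interval 0.08 to 1.28, adjusted p = 0.797 from limma), and the fold change ran from 0.41 to 0.94 without any 1 mouse. Probe set 1428653_x_at gave 137 and 171 in *Ccnyl1*-/- testes, against 131 and 90.7 in WT testes (0.43), and 1452858_at gave 440 and 389 in *Ccnyl1*-/- testes, against 385 and 361 in WT testes (0.14). The annotation assigns both of these to the same expressed sequence, and on both the *Ccnyl1*-/- mice were the higher. Probe set 1445521_at, the dimmest, gave 74.3 and 77.3 in *Ccnyl1*-/- testes, against 67.6 and 93.4 in WT testes (-0.06).

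**Figure D2:**
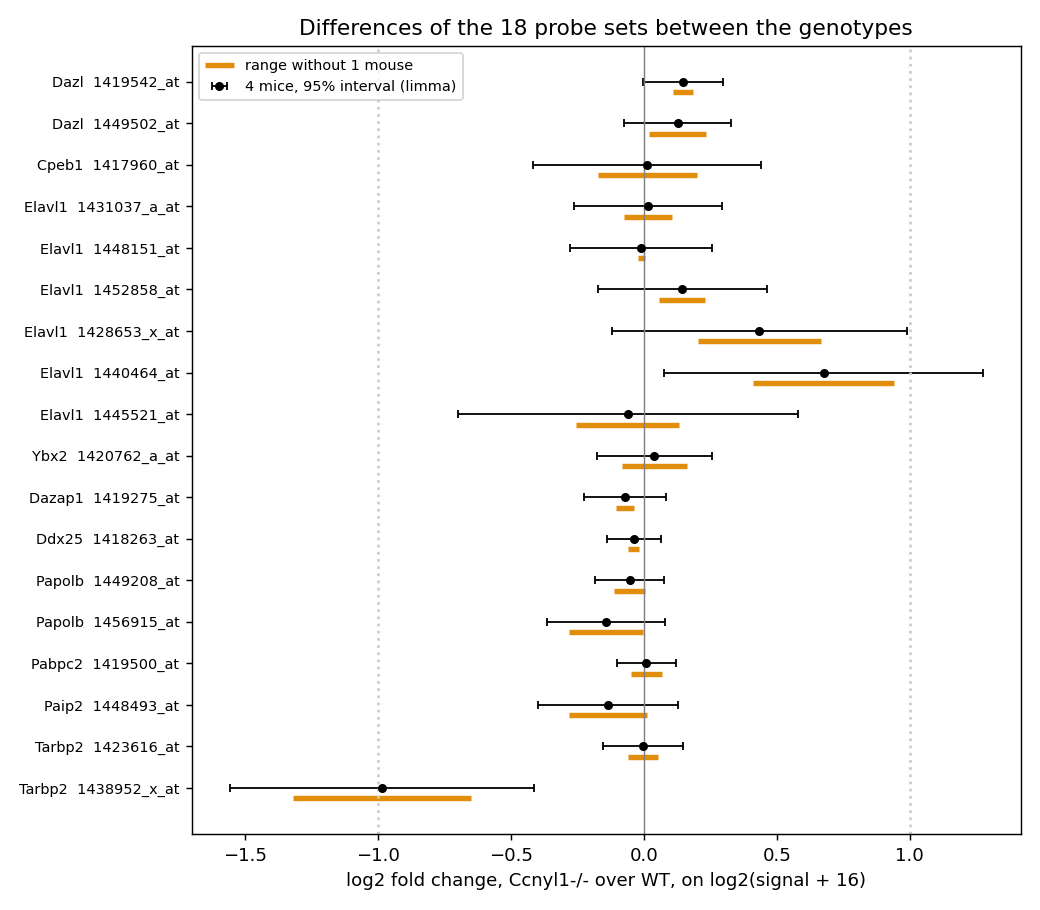
Log2 fold change of *Ccnyl1*-/- over WT for the 18 probe sets, on log2(signal + 16), with the 95% interval from limma over 4 mice as a black bar and the range over the 4 fits without 1 mouse as an orange bar. The dotted lines mark 2-fold either way. Intervals of *Ddx25* and *Pabpc2* are the narrowest, and only those of *Tarbp2* 1438952_x_at and *Elavl1* 1440464_at leave out 0.

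Storage and transport of messages are the work of *Ybx2*, *Dazap1* and *Ddx25*. *Ybx2* encodes MSY2, the Y-box protein that coats much of the germ cell message pool and without which male mice are sterile. Its probe set gave 5895 and 5170 in *Ccnyl1*-/- testes, against 4924 and 5850 in WT testes. The mice of the genotypes overlapped, and the log2 fold change was 0.04 (95% interval -0.18 to 0.26). Its mice also differed more within a genotype than at most probe sets of like signal, with a spread above that of 94.6% of the 1000 nearest, so that the sign turned without WT replicate 1 (-0.08) or *Ccnyl1*-/- replicate 1 (-0.05).

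*Dazap1* encodes a DAZ-associated protein that shuttles between nucleus and cytoplasm. It gave 3314 and 3248 in *Ccnyl1*-/- testes, against 3366 and 3532 in WT testes. Both *Ccnyl1*-/- mice were the lower, by a log2 fold change of -0.07 (95% interval -0.23 to 0.08, adjusted p = 0.896), which is 95.1% of the WT mean signal. *Ddx25* encodes GRTH, a testis helicase that takes part in the export and translation of spermatid messages. It gave 12718 and 12631 in *Ccnyl1*-/- testes, against 12815 and 13199 in WT testes. The groups lay apart, but only by a log2 fold change of -0.04, and with quantile normalization the value was 0.00 with the opposite sign. The interval of *Ddx25*, from -0.14 to 0.07 on the log2 scale or 0.908-fold to 1.05-fold, was the narrowest of the 18.

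The poly(A) tail is made, bound and guarded by 3 members. *Papolb* encodes the testis-specific cytoplasmic poly(A) polymerase of round spermatids. Its brightest probe set, 1449208_at, gave 8323 and 8443 in *Ccnyl1*-/- testes, against 9048 and 8359 in WT testes, a log2 fold change of -0.05 (95% interval -0.18 to 0.08). The other, 1456915_at, gave 2545 and 2599 in *Ccnyl1*-/- testes, against 2577 and 3127 in WT testes, a log2 fold change of -0.14 (adjusted p = 0.864). On each, 1 WT mouse was well above the other, but not the same mouse, and the *Ccnyl1*-/- mice lay close together. The log2 fold change was 0.00400 for 1449208_at without WT replicate 1 and -0.00282 for 1456915_at without WT replicate 2.

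*Pabpc2* is a testis gene for a cytoplasmic poly(A)-binding protein and a close relative of *Pabpc1*. It gave 18786 and 18858 in *Ccnyl1*-/- testes, against 19456 and 17957 in WT testes. The *Ccnyl1*-/- values lay inside the WT range, with a log2 fold change of 0.01 (95% interval -0.10 to 0.12). *Paip2* encodes a small repressor that pulls poly(A)-binding protein off the tail. It gave 2030 and 1655 in *Ccnyl1*-/- testes, against 2151 and 1885 in WT testes. This was the lowest log2 fold change of the brightest probe sets, -0.13 (95% interval -0.40 to 0.13, adjusted p = 0.891), but the groups overlapped and the mice of a genotype differed by more than the genotypes did. Without *Ccnyl1*-/- replicate 2 the value was 0.01.

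*Tarbp2* encodes a double-stranded RNA-binding protein that partners Dicer and, in mouse testis, takes part in the timely translation of protamine messages. Its 2 probe sets disagreed. Probe set 1423616_at gave 4092 and 4422 in *Ccnyl1*-/- testes, against 4260 and 4260 in WT testes, a difference of -0.00 on the log2 scale (95% interval -0.15 to 0.15). Probe set 1438952_x_at gave 441 and 703 in *Ccnyl1*-/- testes, against 1413 and 884 in WT testes. Both *Ccnyl1*-/- mice were below both WT mice, at 49.8% of the WT mean signal, and the log2 fold change of -0.98 (standard error 0.25, 95% interval -1.56 to -0.41) was the largest of the 18. It did not pass (adjusted p = 0.647 from limma), though only 0.595% of all tested probe sets had a smaller p. The fit draws each variance towards those of probe sets of like signal. The pooled standard deviation within genotypes was 0.47 here, so the interval and this rank assume less spread than the mice showed. The mice of a genotype differed by 0.65 between the *Ccnyl1*-/- mice and by -0.67 between the WT mice on the log2 scale (replicate 2 minus replicate 1), a spread above that of 99.0% of the 1000 tested probe sets nearest in signal. Without WT replicate 2 it passed, at -1.32 (adjusted p = 0.0401 from limma), and without WT replicate 1 it was -0.65 (adjusted p = 0.428). The suffix _x_at marks a probe set that the platform's design expects to share probes with other sequences, as it does for *Elavl1* 1428653_x_at, and the annotation gives the one of *Tarbp2* no transcript. How far other transcripts enter its signal was not tested.

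**Figure D3:**
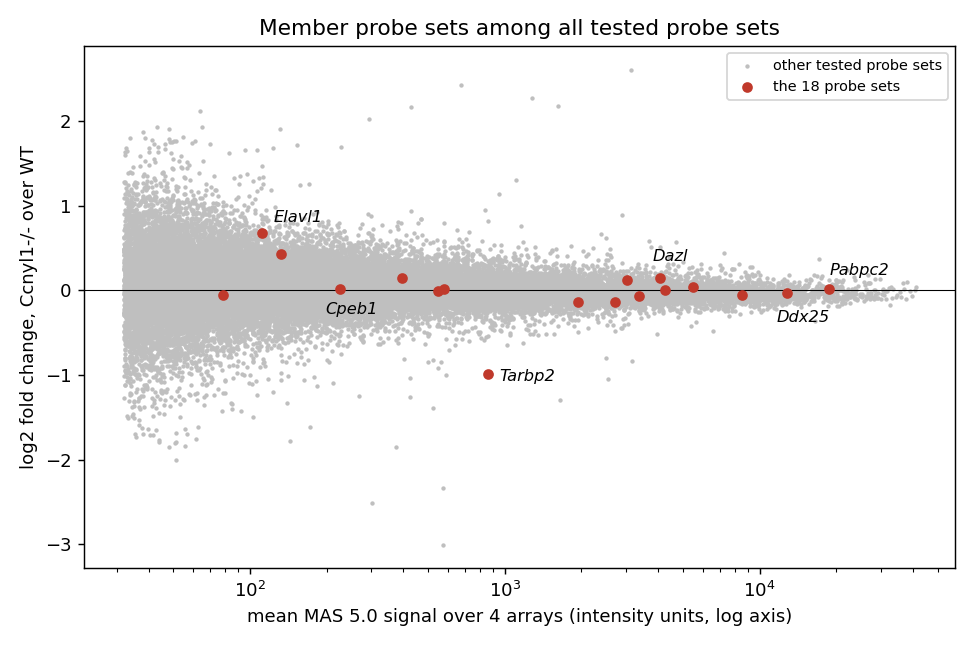
Mean MAS 5.0 signal of the 4 arrays (intensity units, log axis) on the horizontal axis and log2 fold change of *Ccnyl1*-/- over WT on the vertical axis, with all 32438 tested probe sets in grey and the 18 of the 10 genes in red. Except for *Tarbp2* 1438952_x_at at -0.98, the red points lie among the bulk of the grey ones, whose spread is smaller at higher signals.

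Close relatives of the members were measured as well. *Papola*, the somatic poly(A) polymerase, had 0.06 on its brightest probe set, and *Pabpc1*, the general poly(A)-binding protein, had -0.08 (34533 and 32402 in *Ccnyl1*-/- testes, against 34801 and 35897 in WT testes). *Ybx1* had -0.02 and *Ybx3*, the Y-box gene called MSY4, had 0.09 (95% interval 0.01 to 0.17, adjusted p = 0.810), while a second probe set of *Ybx3* had -0.04. *Boll*, the DAZ relative of meiotic and later cells, had 0.08, *Elavl2* 0.13, *Paip2b*, the relative of *Paip2*, -0.13 and *Prkra*, the other Dicer partner, 0.13. The dimmer probe sets of *Elavl2* had 0.02, -0.17 and -0.84. None of these passed the test.

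The CPEB family showed values on both sides of 0. *Cpeb2* gave 1537 and 1178 in *Ccnyl1*-/- testes, against 1047 and 1078 in WT testes, a log2 fold change of 0.34 (95% interval 0.04 to 0.63, adjusted p = 0.797). Its other probe sets had 0.32 (1443017_at, 550 and 551 in *Ccnyl1*-/- testes, against 412 and 462 in WT testes) and 0.07. On the first 2 of its 3 probe sets both *Ccnyl1*-/- mice were above both WT mice. *Cpeb3* had -0.17 on its brightest probe set and 0.33, 0.14 and 0.07 on the others, and *Cpeb4* had 0.12, -0.04 and -0.07. No probe set of *Cpeb2*, *Cpeb3* or *Cpeb4* passed.

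Of 116 other genes in 9 lists, of mRNA control or of messages stored by spermatids, 107 were tested. On their brightest probe set 0 passed the test in either direction. At an unadjusted p under 0.05 there were 9, beside 961 of all 15268 genes tested. Over all 285 of their tested probe sets 0 passed. An unadjusted p under 0.05 was reached by 24 of these (8.42%), beside 6.05% of all tested probe sets. Positive values numbered 63 and negative values 44, with a median of 0.02. The stored messages were 10 of these genes, with 3 positive and 7 negative values. They held 3 of the 9 genes at an unadjusted p under 0.05, namely *Smcp*, *Odf1* and *Prm1* (0.09, adjusted p = 0.771 from limma). Whether the stored messages differ in this from all tested genes was not tested. Among all tested genes 7612 were positive and 7656 negative.

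The medians of the lists lay close to 0, and for 6 of the 9 lists they took both signs when 1 mouse was left out. The sign turned without WT replicate 2 for the DAZ, poly(A)-binding, cap-binding and Y-box lists and without WT replicate 1 for the CPEB, Y-box and double-stranded RNA lists. It also turned without *Ccnyl1*-/- replicate 1 for the poly(A)-binding list and without *Ccnyl1*-/- replicate 2 for the cap-binding list. The 5 tested DAZ, PUF and NANOS genes had 0.07 (-0.01 to 0.09 without 1 mouse), with *Pum2*, a translational repressor, at 0.10 and *Boll*. The 18 genes of the CPEB family, poly(A) polymerases and cleavage factors had 0.01 (-0.02 to 0.04), with *Cpeb2* and *Cpsf4*, a subunit of the cleavage complex, at -0.33. The value of *Cpsf4* rested on WT replicate 2 (402 and 468 in *Ccnyl1*-/- testes, against 429 and 703 in WT testes) and was 0.02 without it. The 7 poly(A)-binding proteins and partners had -0.04 (-0.10 to 0.04 without 1 mouse), with *Pabpc4* at 0.25 and *Paip2b*. The 12 cap-binding and initiation factors had 0.02 (-0.04 to 0.05), with *Eif4e3* at -0.18 and *Eif4ebp2*, an inhibitor of the cap-binding protein, at -0.17. Their dimmer probe sets did not move alike, at 0.31 for *Eif4e3* and 0.03, 0.93 and -0.02 for *Eif4ebp2*. The 17 Y-box and stored mRNP genes had 0.02 (-0.01 to 0.01), with *Fxr2* at -0.42 and the helicase *Ddx6* at 0.23. In *Fxr2* the value came from *Ccnyl1*-/- replicate 2 (599 and 345 in *Ccnyl1*-/- testes, against 596 and 629 in WT testes) and was -0.03 without it. *Ddx6* gave 1893 and 1754 in *Ccnyl1*-/- testes, against 2013 and 1200 in WT testes, and had -0.14 without WT replicate 2. Its dimmer probe sets had 0.27 and 0.45, with the genotypes overlapping on both. Of the 107 genes in these lists, 53 took both signs when 1 mouse was left out, *Papola*, *Ybx1*, *Boll* and *Cpeb4* among them.

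The 22 ELAV, AU-rich element and deadenylation genes had the highest median, 0.08 (0.03 to 0.08 without 1 mouse), with 17 positive and 5 negative values, and both ends of the range in neuronal relatives of *Elavl1*. *Elavl4* gave 98.1 and 131 in *Ccnyl1*-/- testes, against 169 and 177 in WT testes (-0.55, adjusted p = 0.804), and *Elavl3* gave 103 and 110 in *Ccnyl1*-/- testes, against 57.9 and 84.0 in WT testes (0.51, adjusted p = 0.840). Both are dim and did not pass. The other probe set of *Elavl4*, dimmer still, had -0.47. With arrays scaled to one median this list's median was 0.00. The 9 genes of double-stranded RNA and miRNA processing had 0.04 (-0.06 to 0.11 without 1 mouse), with *Ago1* at -0.39 and *Drosha*, the nuclear miRNA enzyme, at 0.26. Both values rested on *Ccnyl1*-/- replicate 2 and turned sign without it, to 0.25 for *Ago1* (202 and 73.5 in *Ccnyl1*-/- testes, against 160 and 175 in WT testes) and -0.06 for *Drosha* (954 and 1495 in *Ccnyl1*-/- testes, against 972 and 1015 in WT testes). The dimmer probe sets of *Drosha* had 0.12 and -0.85. The 7 DEAD-box helicases had 0.02 (0.00 to 0.04 without 1 mouse), with *Ddx17* at 0.10 and *Ddx4*, the germ cell helicase, at 0.08.

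**Figure D4:**
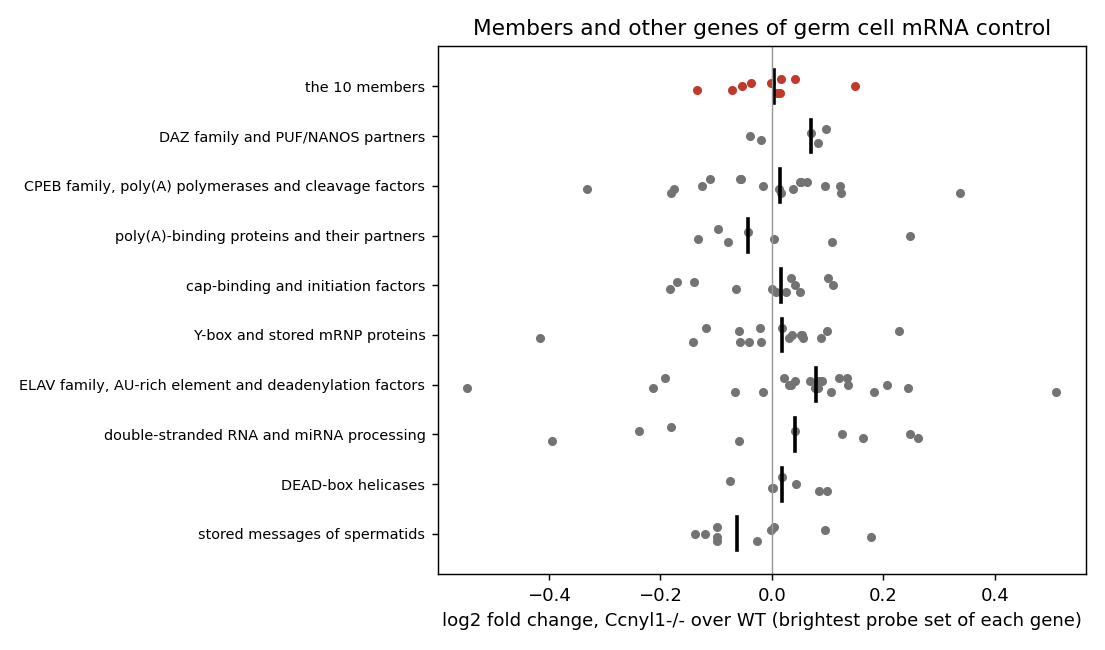
Log2 fold change of *Ccnyl1*-/- over WT on each gene's brightest probe set, 1 point per gene. The 10 members are red and the genes of 9 other lists are grey, with the median as a black line. The 9 lists hold genes of mRNA control and, in 1 list, messages stored by spermatids. The medians run from -0.06 for the stored messages of spermatids to 0.08 for the ELAV and deadenylation list.

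Messages that spermatids store were measured too, and whether the 10 members act on them was not tested. Of 10 genes whose messages spermatids store, 3 were positive and 7 negative, with a median of -0.06. They include all the elongating spermatid markers, on the same probe sets, so neither list is a check on the other. *Smcp*, of the mitochondrial capsule of sperm, gave 27488 and 29122 in *Ccnyl1*-/- testes, against 24994 and 25035 in WT testes (0.18, adjusted p = 0.645). *Odf1*, of the outer dense fibres, gave 20490 and 19706 in *Ccnyl1*-/- testes, against 22142 and 22059 in WT testes (-0.14, adjusted p = 0.724). On these brightest probe sets the mice of the genotypes lay apart, in opposite directions, and neither passed. The other probe sets of *Odf1* overlapped, at 0.07 (1440821_x_at) and -0.12 (1457659_x_at). The median of this list was -0.14 with arrays scaled to one median, -0.00 without *Ccnyl1*-/- replicate 2 and -0.02 without WT replicate 2.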

How the data were processed

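Testis RNA of 2 *Ccnyl1*-/- and 2 WT mice was measured on 1 array each. Per the labels these are biological replicates. The values deposited by the authors are MAS 5.0 signals, intensities on a linear scale, which their software corrected for background and mismatch and scaled by 1 factor per array. The methods give a target of 100, while the deposited arrays had trimmed means of 500.0 (2% left out at each end). Of its 45101 probe sets 64 are controls. Of the others, 34945 have 1 gene in the platform annotation, 932 several and 9160 none. Detection calls were not used.

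The fit was made with limma 3.58.1 (R 4.3.3), with genotype as the sole factor and eBayes variances that follow the mean signal. Named are all members, listed close relatives, and of each list the 2 genes with the largest difference. *Ybx3* and the further probe sets of *Cpeb2*, *Cpeb3*, *Cpeb4*, *Odf1*, *Elavl2*, *Elavl4*, *Eif4e3*, *Eif4ebp2*, *Ddx6* and *Drosha* were described in full after their values were seen. *Prm1*, *Dmc1* and *Spo11* were also named after that. The values of single list genes without 1 mouse were added after the data were seen. The members and lists were chosen with earlier results of these data known. Promoters came from RefSeq, GRCm38.p6.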

Additional observations from a re-analysis of the deposited data

How the results depend on the processing

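The number of arrays limits every value, and leaving out 1 mouse leaves a lone array that is assumed to vary like the others. The count over all probe sets, 4, was 7 with arrays scaled to one median, 0 with eBayes without the trend, 0 with the methods' t-test and 11 to 57 without 1 mouse. With the replicate number as a block it was 14 (4 higher and 10 lower), with 0 of the 18 called. Deviations of mice with the same number correlated at 0.01 over 32438 probe sets, so the numbers are not taken to pair them. The count of the 18 called was 0 in every setting with 4 mice and 0 to 1 without 1 mouse, the 1 being *Tarbp2* 1438952_x_at without WT replicate 2. It kept its sign in every setting run, as did both probe sets of *Dazl*, *Dazap1*, *Papolb* 1456915_at and *Elavl1* 1452858_at. So did *Elavl1* 1440464_at and 1428653_x_at wherever they reached the minimum. The median of the members, 0.00, was -0.00106 with quantile normalization, -0.0742 with arrays scaled to one median and -0.0424 to -0.00887 without 1 mouse. With arrays scaled to one median 5 of the 18 were positive and 13 negative, in place of 9 and 9, and 40.2% of all tested were positive, in place of 54.8%. The sign turned for *Cpeb1* (-0.0339 with quantile normalization, -0.0587 with one median), *Elavl1* 1431037_a_at (-0.00581 and -0.0601), *Ddx25* (0.00370 with quantile normalization) and *Tarbp2* 1423616_at (0.0125), and with one median for *Pabpc2* (-0.0683) and *Ybx2* (-0.0376). Without 1 mouse it also turned within these ranges: *Cpeb1* -0.17 to 0.20, *Pabpc2* -0.0478 to 0.0678, *Ybx2* -0.0835 to 0.165, *Tarbp2* 1423616_at -0.0577 to 0.0536, *Elavl1* 1431037_a_at -0.0723 to 0.105, 1445521_at -0.25 to 0.13 and 1448151_at -0.0226 to 0.00511, *Paip2* -0.28 to 0.0116 and *Papolb* 1449208_at -0.11 to 0.00400. None of these passed the test in any setting. The other settings, which were no offset, an offset of 32, signals rescaled to a trimmed mean of 100 (15 of the 18 then tested), no minimum signal, a minimum of 100 and robust eBayes, changed no sign and called none of the 18.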
